A study of Mus musculus with 39 samples.

Results

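Klf2, Klf4 and Klf5 are the 3 members of the Krüppel-like factor (KLF) family that sustain naive pluripotency in mouse embryonic stem cells, and their loci were read here in histone mark profiles of an endoderm culture that keeps an Oct4-expressing fraction. Every peak within the body of each gene or 100 kb either side of it was taken, on the GRCm38 assembly. This gave 302 of the 432096 peaks in all 36 lists, of which 126 lay at Klf2, 75 at Klf4 and 101 at Klf5. The rule used position only, and no signal value. Klf2 (ENSMUSG00000055148.7) lies on the plus strand at chr8:72319033-72321656, Klf4 (ENSMUSG00000003032.8) on the minus strand at chr4:55527143-55532466, and Klf5 (ENSMUSG00000005148.8) on the plus strand at chr14:99298691-99315036.

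KLF proteins are zinc finger transcription factors that bind GC-rich and CACCC-type sequences in promoters and enhancers. In embryonic stem cells Klf4 is a direct target of LIF signaling through STAT3, Klf2 is held on by OCT4, and Klf5 is needed in the blastocyst, in both its inner cell mass and its trophectoderm, so that the 3 factors share many targets while answering to different inputs. H3K4me1 marks enhancers whether or not they are in use, H3K27ac marks active enhancers and promoters, H3K27me3 is deposited by Polycomb on silenced developmental genes, and H3K9me3 marks heterochromatin.

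The cells were naive extra-embryonic endoderm (nEnd), a stem cell culture that models primitive endoderm, grown without further treatment from the mouse OCT4-mCherry reporter line on feeder fibroblasts in a medium that holds LIF, CHIR99021 and Activin A. They were sorted by OCT4-mCherry fluorescence and a PDGFRA-APC antibody into Oct4+, double positive (DP) and Pdgfra+ populations, so that all groups carry the same reporter and share 1 parental line. CUT&Tag, which uses antibody-tethered Tn5 transposase to insert sequencing adapters near a histone mark, was run for 4 marks with 3 replicates per population. The study calls its replicates biological, and neither it nor the labels say whether each came from its own culture and sort, so that p-values measure the spread between these libraries.

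H3K27ac lists held 3079 to 65131 peaks, H3K4me1 lists 1074 to 16057, H3K27me3 lists 1143 to 8672 and H3K9me3 lists 5322 to 29970. The longest H3K27ac lists were from Oct4+ replicates 1 and 2, with 38619 and 65131 peaks, and the shortest H3K4me1 lists were from Pdgfra+ replicates 1 and 2, with 1723 and 1074. Depth is unknown, because the lists hold no read totals, and a locus without a peak may be one below the threshold of a short list. Of 10 epiblast markers, 8 carried promoter H3K27ac in at least 2 Oct4+ libraries against 0 in DP and 0 in Pdgfra+, with Nanog and Sox2 in 3, 0 and 0 libraries. Of 10 primitive endoderm markers, 2 did so in Oct4+, 9 in DP and 7 in Pdgfra+. Of 10 trophoblast markers, 3 did so in each population, and of 10 mesoderm markers none did. No fibroblast marker of 10 did so in any population, and such a peak was listed at Twist1 in 1 Oct4+ library and at Lum in 1 DP library alone.

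At Klf4, the promoter was acetylated in all 3 populations, while the distal elements differed between them. A downstream cluster, 50 to 70 kb past the start, carried H3K4me1 in Oct4+ and DP but in no Pdgfra+ library, and carried H3K27ac mainly in Oct4+. An upstream element, 8 to 12 kb before the start, carried H3K4me1 in DP and Pdgfra+ but in no Oct4+ library. The DP population held H3K4me1 at both.

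Promoter H3K27ac, counted from 1 kb upstream to 100 bp downstream of the start, was listed in 9 of 9 libraries at Klf4, a pattern shared by 6.38% of protein-coding genes. Its maximum signal, the highest fragment coverage within the peak, was 15, 17 and 11 in Oct4+ replicates 1 to 3, 33, 18 and 36 in DP, and 30, 16 and 41 in Pdgfra+. These maxima are not scaled between libraries, and each list has its own floor. No library had H3K4me1, H3K27me3 or H3K9me3 at the Klf4 promoter. The sequence from 250 to 51 bases before the RefSeq start is shown because it is the stretch under that shared peak, with each GC box (GGGCGG on either strand), the binding sequence of SP and KLF factors, in capitals.
Klf4 promoter, chr4:55532526-55532725, minus strand: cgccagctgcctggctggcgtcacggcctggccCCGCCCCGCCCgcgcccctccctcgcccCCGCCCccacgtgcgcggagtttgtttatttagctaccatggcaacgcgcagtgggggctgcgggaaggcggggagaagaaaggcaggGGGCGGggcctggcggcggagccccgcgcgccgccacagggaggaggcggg
The Klf4 run had a GC content of 76.5% and held 4 GC boxes, the first pair overlapping by 1 base. A GC box was present in the same 200 bases of 24.6% of 32851 RefSeq promoters (GRCm38.p6).

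**Figure D1:**
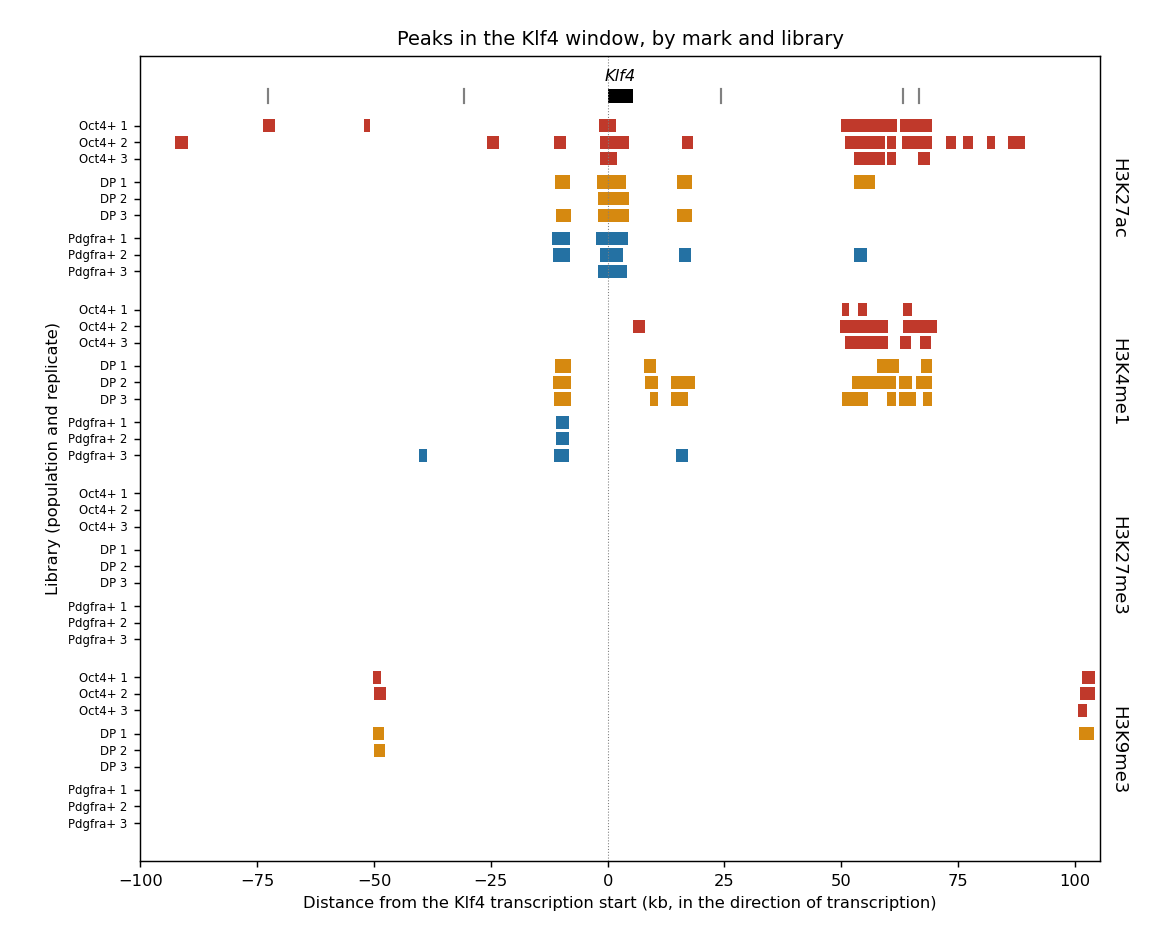
Peaks of the 36 libraries in the Klf4 window, by mark, population and replicate, against distance from the Klf4 start in kb. The black box is the gene and grey ticks are the starts of other annotated genes. Red blocks from 50 to 70 kb recur in all Oct4+ H3K27ac and H3K4me1 libraries, and orange and blue H3K4me1 blocks recur near 10 kb upstream, where no red one lies.

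The larger H3K4me1 region of the downstream cluster, chr4:55470209-55482702, runs from 49.8 to 62.3 kb past the Klf4 start and lies between genes. It held a peak in 3 Oct4+, 3 DP and 0 Pdgfra+ libraries, with maximum signals of 12, 25 and 19 in Oct4+ and 7, 26 and 13 in DP. That combination occurred in 0.46% of 26496 merged H3K4me1 regions. With every H3K4me1 list cut to its 1074 strongest peaks, the region stayed in 2 Oct4+ and 2 DP lists and in no Pdgfra+ list.

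H3K27ac over the same stretch, chr4:55470508-55482499, was listed in 3 Oct4+, 1 DP and 1 Pdgfra+ library. The maximum signals were 20, 27 and 17 in Oct4+, 18 in DP replicate 1 and 7 in Pdgfra+ replicate 2. These Oct4+ values exceeded those of the Klf4 promoter in the same libraries. Cut to the 3079 strongest peaks, the H3K27ac lists kept the region in 3 Oct4+, 0 DP and 0 Pdgfra+ libraries, and the full pattern was that of 0.119% of 78963 merged H3K27ac regions.

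Next to it, from 62.5 to 69.4 kb, lies the second block of the cluster, which overlaps the start of the lincRNA gene Gm12510 at 66.7 kb. Its H3K27ac was listed in 3 Oct4+, 0 DP and 0 Pdgfra+ libraries, as for 3.07% of merged H3K27ac regions, with maxima of 12, 11 and 8. Its H3K4me1 was listed in 3, 3 and 0 libraries. At equal list length this H3K4me1 stayed in 1, 0 and 0 lists, and with a common minimum of total signal in 1, 1 and 0. Thus, in the full lists, DP libraries resembled Oct4+ at the cluster by H3K4me1 and Pdgfra+ by H3K27ac, except for the single DP replicate above.

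The upstream element, chr4:55540208-55544218, runs from 11.8 to 7.74 kb before the start and is intergenic. H3K4me1 was listed in 0 Oct4+, 3 DP and 3 Pdgfra+ libraries, with maxima of 18, 23 and 17 in DP and 7, 7 and 19 in Pdgfra+, a combination found in 0.532% of merged regions. Its H3K27ac was listed in Oct4+ replicate 2 (6), DP replicates 1 and 3 (19 and 23) and Pdgfra+ replicates 1 and 2 (19 and 12). Cut to the strongest 1074 peaks, H3K4me1 stayed in 0, 2 and 3 lists, and with a common minimum of total signal in 0, 3 and 1. Its H3K27ac stayed in 0, 0 and 1 lists at equal list length and in 0, 1 and 0 at the common minimum.

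Of the merged regions outside promoters with a peak in all 3 libraries of a population, 4 lay in the Klf4 window. The 3 of highest mean maximum signal lie in the downstream cluster and the upstream element, and are shown as 200 bases around the maximum. The other, an H3K4me1 region 5.51 to 10.8 kb past the start, was listed in 1 Oct4+, 3 DP and 0 Pdgfra+ libraries. That combination occurred in 0.381% of merged regions, and the region stayed in 0, 0 and 0 lists at equal list length. Capitals mark any match, on either strand, to the STAT motif TTCCNGGAA, the octamer TGCAAAT, the ESRRB motif AAGGTCA, the GATA motif AGATAAG, the KLF motif CACACCC or the GC box.
Klf4, H3K27ac, chr4:55477949-55478148, plus strand: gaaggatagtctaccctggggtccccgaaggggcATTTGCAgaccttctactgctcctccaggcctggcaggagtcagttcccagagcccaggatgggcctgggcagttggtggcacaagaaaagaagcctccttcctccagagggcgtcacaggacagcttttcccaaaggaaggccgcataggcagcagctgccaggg
Klf4, H3K4me1, chr4:55480550-55480749, plus strand: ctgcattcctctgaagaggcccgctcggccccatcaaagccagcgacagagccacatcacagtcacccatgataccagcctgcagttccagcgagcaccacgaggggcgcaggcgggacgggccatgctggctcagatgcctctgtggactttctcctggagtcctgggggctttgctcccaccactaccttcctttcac
Klf4, H3K4me1, chr4:55543018-55543217, plus strand: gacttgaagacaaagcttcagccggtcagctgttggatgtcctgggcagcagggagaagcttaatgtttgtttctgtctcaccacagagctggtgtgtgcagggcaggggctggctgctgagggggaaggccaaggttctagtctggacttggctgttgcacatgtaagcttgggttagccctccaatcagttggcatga
The first is the H3K27ac maximum of the downstream cluster, 54.4 kb past the start. It holds TGCAAAT, 7 bases of the octamer that OCT4 binds, but not the full octamer. The same 7 bases were present in 2.84% of 59075 such windows at H3K27ac regions outside promoters. The second, the H3K4me1 maximum 51.8 kb past the start, and the third, the upstream element 10.7 kb before it, hold none of these motifs.

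Over the whole Klf4 window, H3K27ac covered 26.5, 43.2 and 15.0 kb in Oct4+, 16.8, 6.68 and 13.1 kb in DP, and 10.7, 14 and 6.25 kb in Pdgfra+. All 3 Oct4+ values lay above all 3 Pdgfra+ values, which was so for 23.0% of the 20731 genes tested, and Oct4+ overlapped DP. The means were 28.2 ± 14.2, 12.2 ± 5.13 and 10.3 ± 3.90 kb (SD, n = 3). The exact permutation test over all assignments of the 9 libraries gave p = 0.0714, two-sided, and a Benjamini-Hochberg adjusted p of 0.441. In H3K27ac no gene passed an adjusted p of 0.05 by this test, and 12.2% had an unadjusted p at or under 0.05. Because a sorted population can hold more than 1 kind of cell, fewer cells with a mark and less of it per cell cannot be told apart here.

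For H3K4me1, the Klf4 window was covered over 5.49, 20.1 and 14.2 kb in Oct4+, 13, 27.5 and 21.8 kb in DP, and 2.87, 2.70 and 7.66 kb in Pdgfra+. The DP libraries all lay above the Pdgfra+ libraries, as for 5.64% of 17206 genes, and the Oct4+ libraries overlapped both. The means were 13.2 ± 7.34, 20.8 ± 7.29 and 4.41 ± 2.82 kb, with an exact permutation p of 0.0571 (adjusted p = 0.768). No gene was called for H3K4me1, and 5.77% had an unadjusted p at or under 0.05.

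These totals add elements of opposite pattern, so the window was also read by distance. The stretch 20 to 100 kb downstream was chosen after the cluster had been seen in these libraries. Its separations and p-values, for both marks, therefore describe that choice and are not independent support. Within 20 kb of the gene, H3K4me1 covered 0, 2.58 and 0 kb in Oct4+, 6.13, 11.9 and 8.78 kb in DP, and 2.87, 2.70 and 5.78 kb in Pdgfra+. From 20 to 100 kb downstream, it covered 5.49, 17.5 and 14.2 kb in Oct4+, 6.90, 15.6 and 13 kb in DP, and 0 kb in every Pdgfra+ library. The order of Oct4+ and Pdgfra+ was thus opposite in the near and the far stretch, with no overlap of their libraries in either. All Pdgfra+ libraries lay above all Oct4+ libraries near 0.669% of 13301 genes, and the reverse held downstream of 11.6% of 12740. The exact permutation p over the 3 populations was 0.00357 for the near stretch, the smallest that 9 libraries allow. It was 0.0429 for the far one, with adjusted p-values of 0.639 and 0.606. This test does not compare Oct4+ with Pdgfra+ alone. Near the gene DP lay above both, and Oct4+ and Pdgfra+ were parted only by 2.58 against 2.70 kb.

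H3K27ac split the same way downstream, where it covered 18.9, 26.8 and 11.3 kb in Oct4+, 4.40, 0 and 0 kb in DP, and 0, 2.83 and 0 kb in Pdgfra+. Oct4+ exceeded Pdgfra+ there without overlap, as for 15.5% of genes (exact permutation p = 0.0357, adjusted p = 0.406). Near the gene the H3K27ac values overlapped: 3.69, 11 and 3.64 kb in Oct4+, 12.4, 6.68 and 13.1 kb in DP, and 10.7, 11.2 and 6.25 kb in Pdgfra+ (exact permutation p = 0.332, adjusted p = 0.652).

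**Figure D2:**
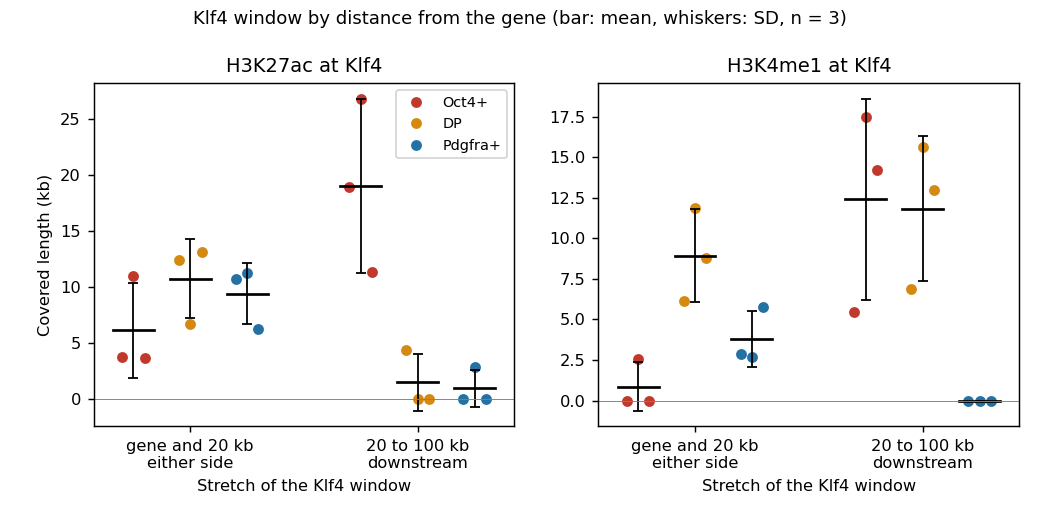
Covered length in kb at Klf4 near the gene and 20 to 100 kb downstream, for H3K27ac and H3K4me1. Points are libraries, with the mean as a bar and the SD as whiskers (n = 3). Downstream H3K4me1 is 0 kb in all Pdgfra+ libraries, and near the gene the Oct4+ libraries are the lowest, at 0, 2.58 and 0 kb.

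Each H3K4me1 region outside annotated promoters that was listed in at least 2 of 3 libraries of a population was read as active where it overlapped a region acetylated in at least 2 of 3, and as primed where it overlapped neither H3K27ac nor H3K27me3. Klf4 had 1 such region in Oct4+, 4 in DP and 1 in Pdgfra+, and the second block of the cluster, which overlaps a promoter, was not counted. The Oct4+ region was the larger one of the downstream cluster and was active, and the same region was primed in DP and unlisted in Pdgfra+. The Pdgfra+ region was the upstream element, active there and in DP. The other DP regions were an active one 13.6 to 18.7 kb and a primed one 7.70 to 10.8 kb past the start. These counts move with the number of libraries required, except that this region stayed the 1 active Oct4+ region whether 1, 2 or 3 were. Genome-wide, 60.9% of 4853 Oct4+ regions were active, against 31.9% of 4953 in DP and 40.1% of 1521 in Pdgfra+. The primed shares were 36.9%, 62.3% and 59.2%.

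Klf4 had no H3K27me3 peak in any library. H3K9me3 lay far from the gene. A region 101 to 104 kb past the start was listed in 3 Oct4+, 1 DP and 0 Pdgfra+ libraries, and a region 50.3 to 47.5 kb before it in 2, 2 and 0. Together they covered 4.54, 5.58 and 1.82 kb in Oct4+, 5.66, 2.33 and 0 kb in DP and 0 kb in Pdgfra+ (exact permutation p = 0.143, adjusted p = 0.591). Oct4+ lay above Pdgfra+ without overlap, as for 14.1% of 19943 genes. No gene was called for H3K9me3, and 12.2% had an unadjusted p at or under 0.05.

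At Klf2, active marks surrounded the gene in Oct4+ cells and H3K27me3 was listed only in the other populations. H3K27ac formed a merged block from 11.9 kb before to 21.3 kb past the start, chr8:72307129-72340320, with a peak in 3 Oct4+, 3 DP and 1 Pdgfra+ library (0.113% of merged H3K27ac regions). Its maximum signals were 15, 18 and 14 in Oct4+, 18, 7 and 22 in DP and 14 in Pdgfra+ replicate 2.

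The Klf2 promoter had H3K27ac in 3 Oct4+, 3 DP and 1 Pdgfra+ library, a pattern of 0.242% of genes, and H3K4me1 in Oct4+ replicate 2 and DP replicate 3 alone. The 200 bases upstream, shown for comparison with Klf4, again mark GC boxes in capitals.
Klf2 promoter, chr8:72318812-72319011, plus strand: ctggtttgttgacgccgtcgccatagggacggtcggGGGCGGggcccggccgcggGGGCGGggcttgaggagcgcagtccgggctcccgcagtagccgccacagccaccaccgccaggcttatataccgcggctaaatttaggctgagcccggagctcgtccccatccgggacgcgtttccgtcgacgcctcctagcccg
This stretch had a GC content of 70.5% and held 2 GC boxes. It held no match to the other motifs, and nor did that of Klf4.

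**Figure D3:**
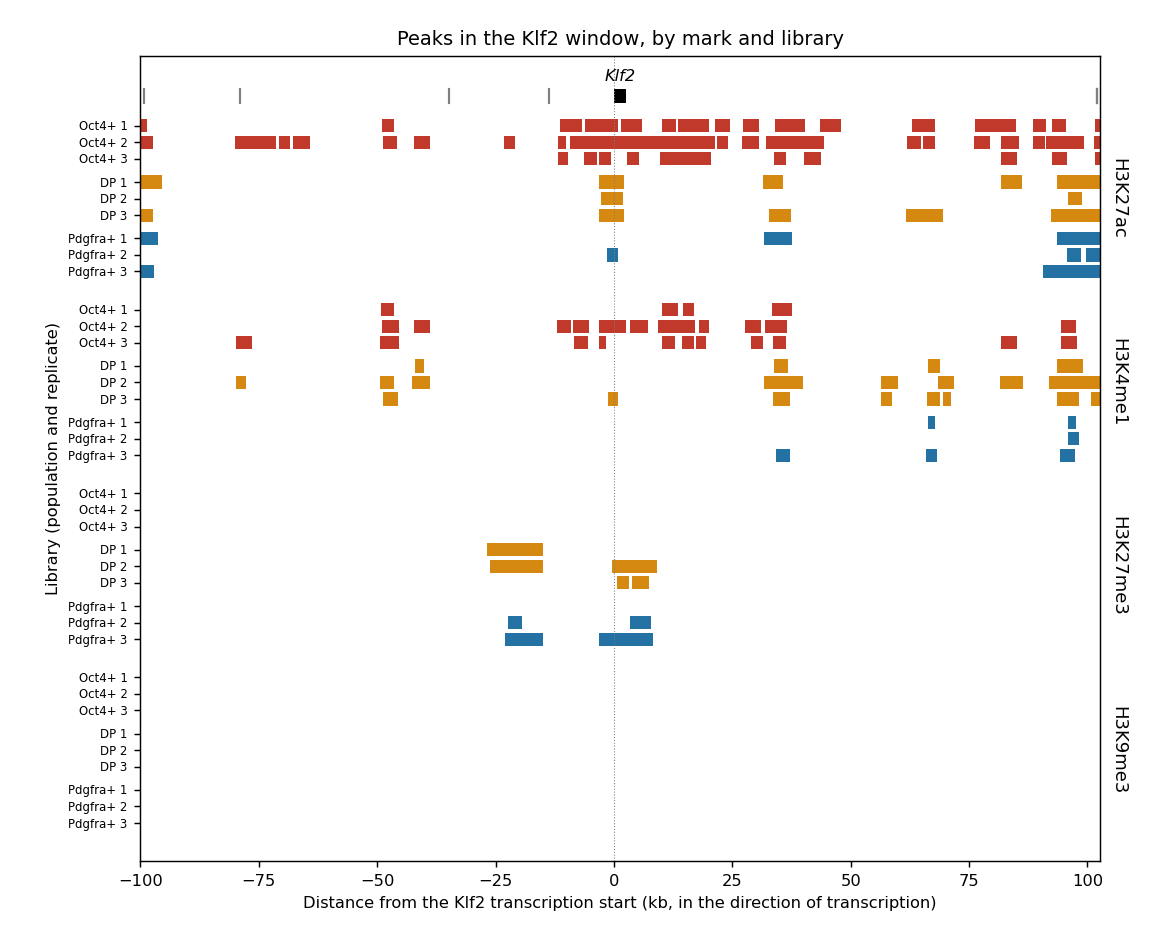
Peaks of the 36 libraries in the Klf2 window, drawn as for Klf4, with distance from the Klf2 start in kb. H3K27ac recurs in all Oct4+ libraries over the 21 kb past the start, where DP and Pdgfra+ hold at most the promoter block, H3K27me3 blocks appear in DP and Pdgfra+ on both sides of the start, and the blocks shared by all populations near 95 to 105 kb lie at the start of Eps15l1.

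Within 20 kb of Klf2, H3K27ac covered 26.7, 33.1 and 20.5 kb in Oct4+, 5.18, 4.73 and 5.23 kb in DP, and 0, 2.43 and 0 kb in Pdgfra+. The 3 populations did not overlap. All 3 Oct4+ libraries lay above all 3 DP libraries, and these above all 3 Pdgfra+ libraries, as for 0.118% of 18706 genes. The exact permutation p was 0.00357, the smallest possible, and the adjusted p 0.443. H3K4me1 in the same stretch covered 5.69, 26.1 and 12 kb in Oct4+, 0, 0 and 2.17 kb in DP, and 0 kb in all Pdgfra+ libraries (exact permutation p = 0.0357, adjusted p = 0.639). Oct4+ was above Pdgfra+ in every library there, as for 10.3% of genes. DP thus had about 5 kb of H3K27ac near Klf2, promoter peak included, and H3K4me1 in 1 library.

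The 3 distal regions of highest mean maximum signal at Klf2, on the unscaled values of the lists, were all H3K4me1 regions of Oct4+. The region 9.39 to 17.2 kb past the start, chr8:72328424-72336224, was listed in 3 Oct4+, 0 DP and 0 Pdgfra+ libraries (9, 18 and 16), as were 3.79% of merged regions, and it kept all 3 at equal list length. The region 31.8 to 39.9 kb past it, chr8:72350822-72358904, in an intron of Eps15l1, was listed in 3, 3 and 1 (8, 27 and 15 in Oct4+, 15, 21 and 12 in DP and 11 in Pdgfra+ replicate 3). The region 49.5 to 45.3 kb before it, chr8:72269531-72273726, was listed in 3, 2 and 0 (8, 22 and 14 in Oct4+, 17 and 12 in DP replicates 2 and 3). At equal list length, the Eps15l1 region stayed in 2 Oct4+, 1 DP and 0 Pdgfra+ lists, and the upstream region in 1, 0 and 0. With a common minimum of total signal, each of these stayed in 2, 2 and 0 lists, and the 9.39 kb region in 2, 0 and 0. These 3 of the 6 regions that met the rule at Klf2 differ, in the full lists, in how far the mark reaches into DP. Their maxima are shown with motif matches in capitals.
Klf2, H3K4me1, chr8:72330277-72330476, plus strand: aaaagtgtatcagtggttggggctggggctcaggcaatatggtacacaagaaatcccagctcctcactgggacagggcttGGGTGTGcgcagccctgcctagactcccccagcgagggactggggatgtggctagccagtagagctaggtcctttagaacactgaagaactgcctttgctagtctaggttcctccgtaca
Klf2, H3K4me1, chr8:72353504-72353703, plus strand: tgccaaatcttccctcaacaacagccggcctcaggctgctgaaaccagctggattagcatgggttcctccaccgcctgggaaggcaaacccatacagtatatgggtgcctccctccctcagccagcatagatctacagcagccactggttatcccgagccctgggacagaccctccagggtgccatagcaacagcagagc
Klf2, H3K4me1, chr8:72271823-72272022, plus strand: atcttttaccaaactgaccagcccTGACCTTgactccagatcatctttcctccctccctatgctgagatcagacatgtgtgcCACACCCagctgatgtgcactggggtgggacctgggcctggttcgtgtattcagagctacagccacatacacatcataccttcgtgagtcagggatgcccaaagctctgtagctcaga
The 9.39 kb region, at 11.3 kb, holds a KLF motif, and the upstream region, 47.1 kb before the start, holds an ESRRB and a KLF motif. A KLF motif was present in 11.7% and an ESRRB motif in 7.39% of 17647 such windows at H3K4me1 regions outside promoters. The region in Eps15l1 holds none.

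Outside promoters, 7 of 7 Oct4+ regions at Klf2 were active, as were 1 of 5 DP and 1 of 2 Pdgfra+ regions. The other DP and Pdgfra+ regions were primed. Genome-wide, 60.9% of Oct4+ regions were active, and 62.3% of DP and 59.2% of Pdgfra+ regions were primed. A region over the Klf2 promoter, with H3K4me1 in 2 Oct4+ and 1 DP library, was not counted. The region in the Eps15l1 intron was active in both Oct4+ and DP. The region from 94.4 to 97.8 kb was active in Oct4+ and, with nearly the same bounds, in Pdgfra+. The same stretch held H3K4me1 and H3K27ac in 3 DP libraries each, but the DP region there extends over the Eps15l1 promoter and was not counted. The stretch lies inside Eps15l1 near the start of that gene at 102 kb, and its link to Klf2 was not tested. From 65.8 to 71.8 kb, an intronic Eps15l1 region carried H3K4me1 in 0 Oct4+, 3 DP and 2 Pdgfra+ libraries and was primed in both DP and Pdgfra+.

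H3K27me3 at Klf2 lay in 2 regions, from 26.9 to 15.0 kb before the start and from 3.19 kb before to 9.0 kb past it. The first was listed in DP replicates 1 and 2 (13 and 14) and Pdgfra+ replicates 2 and 3 (8 and 18). The second was listed in DP replicates 2 and 3 (29 and 19) and Pdgfra+ replicates 2 and 3 (9 and 25). Neither was listed in an Oct4+ library, a combination (0, 2 and 2) found in 0.908% of 10684 merged H3K27me3 regions. The second spans the gene as a merged region, not in each library. Its peaks overlapped the Klf2 promoter in DP replicate 2 and Pdgfra+ replicate 3 alone, a promoter pattern of 0.693% of genes. Klf2 is the only member with H3K27me3 in its window, and whether it lies on the same chromosomes as the H3K27ac of the promoter in DP was not tested.

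Summed over the window, H3K27me3 covered 0 kb in all Oct4+ libraries, 11.9, 20.5 and 5.99 kb in DP, and 0, 7.35 and 19.4 kb in Pdgfra+ (exact permutation p = 0.164, adjusted p = 0.613). DP lay above Oct4+ without overlap, as for 26.0% of 14693 genes. Pdgfra+ replicate 1, with no H3K27me3 at Klf2, had the shortest H3K27me3 list (1143 peaks), and Oct4+ replicate 1 the next (1629). With every list cut to 1143 peaks, no DP list kept either region, the mean covered lengths were 0, 0 and 1.46 kb in Oct4+, DP and Pdgfra+, and DP no longer lay above Oct4+. No gene was called for H3K27me3, and 7.79% had an unadjusted p at or under 0.05.

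H3K27ac over the whole Klf2 window covered 66.6, 101 and 34.4 kb in Oct4+, 27.3, 7.69 and 30.7 kb in DP, and 18.6, 8.25 and 14.9 kb in Pdgfra+. The Oct4+ libraries lay above all others, as for 10.4% of genes against DP and 23.0% against Pdgfra+. The means were 67.3 ± 33.3, 21.9 ± 12.4 and 13.9 ± 5.27 kb (SD, n = 3; exact permutation p = 0.0143, adjusted p = 0.354). The difference between Oct4+ and Pdgfra+ of 53.3 kb exceeded that of 99.3% of genes, whose median was 10.5 kb.

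H3K4me1 covered 12.5, 44.4 and 31.1 kb of the Klf2 window in Oct4+, 12.7, 39.7 and 22.4 kb in DP, and 3.43, 2.27 and 8.39 kb in Pdgfra+. Both Oct4+ and DP lay above Pdgfra+ without overlap, as for 11.1% and 5.64% of genes, and overlapped each other. The exact permutation p was 0.10 (adjusted p = 0.768). Klf2 had no H3K9me3 peak.

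At Klf5, promoter H3K27ac was listed in 3 Oct4+, 1 DP and 1 Pdgfra+ library, a pattern of 0.16% of genes, and the regions past the gene carried H3K27ac mainly in Oct4+, while H3K4me1 there was listed mainly in Oct4+ at some and mainly in DP at others. The promoter maxima were 8, 11 and 8 in Oct4+, 23 in DP replicate 1 and 29 in Pdgfra+ replicate 1. These maxima are not scaled between libraries. The weakest peak listed in those libraries had a total signal of 13683 and 27115, against 5460 to 6021 in Oct4+. With lists cut to the 3079 strongest peaks the Klf5 promoter peak remained in 0 Oct4+, 1 DP and 0 Pdgfra+ libraries.

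**Figure D4:**
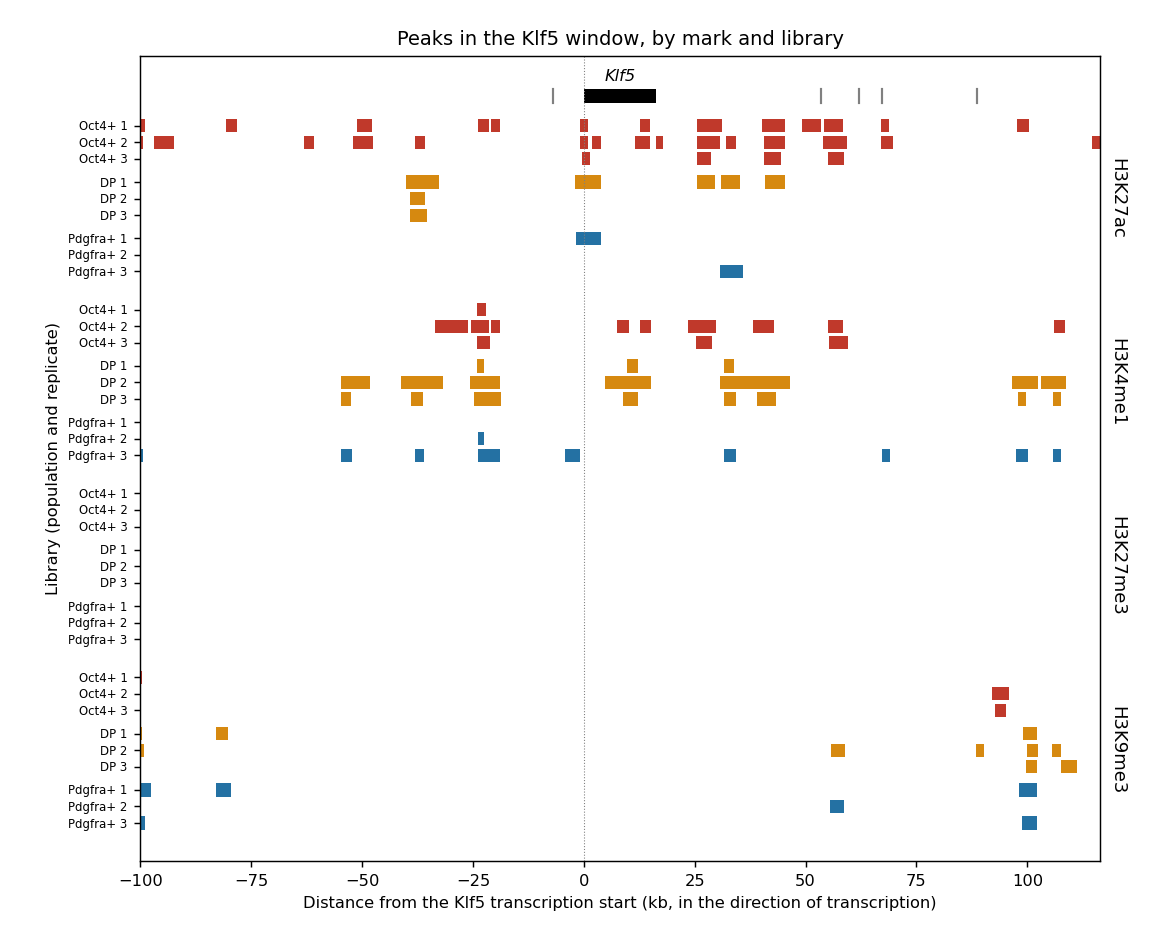
Peaks of the 36 libraries in the Klf5 window, drawn as for Klf4, with distance from the Klf5 start in kb. H3K27ac of Oct4+ recurs between 25 and 60 kb, DP H3K27ac recurs 40 to 33 kb upstream, and H3K4me1 is densest in DP replicate 2.

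Past the gene, H3K27ac was listed from 25.5 to 35.9 kb in 3 Oct4+, 1 DP and 1 Pdgfra+ library (16, 12 and 12 in Oct4+, 20 in DP replicate 1 and 19 in Pdgfra+ replicate 3). From 40.3 to 45.4 kb it was listed in 3, 1 and 0 libraries, and from 54.0 to 59.4 kb, next to the start of the snRNA gene Gm22984, in 3, 0 and 0. At equal list length these regions stayed in 3, 3 and 1 Oct4+ libraries respectively and in no DP or Pdgfra+ library. With a common minimum of total signal, the first stayed in 1 Oct4+, 0 DP and 1 Pdgfra+ library. The second and the third then stayed in no library, so the Oct4+ pattern was not kept under that setting. H3K4me1 over 30.7 to 46.4 kb, a region that overlaps the first and the second, was listed in 1 Oct4+, 3 DP and 1 Pdgfra+ library.

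Upstream, an H3K27ac region from 40.2 to 32.6 kb before the start, chr14:99258530-99266096, was listed in 1 Oct4+, 3 DP and 0 Pdgfra+ libraries. The maxima were 13 in Oct4+ replicate 2 and 15, 10 and 13 in DP. Only 11 of 78963 merged H3K27ac regions (0.0139%) had this combination, and at equal list length it was listed in 2 DP libraries and no other. It overlaps the sole active H3K4me1 region of Klf5 in DP.

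Nearer the gene, the H3K4me1 region from 25.7 to 18.7 kb before the start, chr14:99273002-99279950, was listed in 3 Oct4+, 3 DP and 2 Pdgfra+ libraries. Its maxima were 6, 15 and 6 in Oct4+, 13, 23 and 20 in DP, and 7 and 14 in Pdgfra+ replicates 2 and 3. H3K27ac reached it in 1 Oct4+ library alone, so that it was primed in all 3 populations.

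Of 6 distal regions at Klf5 that met the rule, the 3 of highest mean maximum signal were this one, the 30.7 to 46.4 kb H3K4me1 region and the 25.5 to 35.9 kb H3K27ac region. The first and the last are shown because they carry the primed and the Oct4+ acetylated pattern of the locus.
Klf5, H3K4me1, chr14:99275201-99275400, plus strand: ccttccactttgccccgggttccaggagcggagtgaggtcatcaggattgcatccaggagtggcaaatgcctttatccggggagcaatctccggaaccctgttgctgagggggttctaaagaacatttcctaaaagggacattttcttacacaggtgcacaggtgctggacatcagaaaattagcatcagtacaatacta
Klf5, H3K27ac, chr14:99324487-99324686, plus strand: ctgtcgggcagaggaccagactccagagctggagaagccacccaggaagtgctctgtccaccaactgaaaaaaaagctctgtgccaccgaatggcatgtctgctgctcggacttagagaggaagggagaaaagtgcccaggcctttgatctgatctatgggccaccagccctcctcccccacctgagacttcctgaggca
Neither these nor the maximum of the other, at 33.6 kb, hold any of the 6 motifs. A match would be a description of the letters, and its absence says nothing about binding.

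Klf5 had 2 active and 1 primed region in Oct4+, 1 active and 6 primed in DP, and 1 primed in Pdgfra+. Genome-wide, 36.9% of Oct4+, 62.3% of DP and 59.2% of Pdgfra+ regions were primed. The 2 active Oct4+ regions, from 23.6 to 29.7 kb and from 55.0 to 59.5 kb past the start, carried H3K4me1 in 2 Oct4+ libraries and in no DP or Pdgfra+ library. The primed DP regions include 1 from 4.72 to 15.1 kb, over the gene itself, with H3K4me1 in 1, 3 and 0 libraries. No H3K4me1 region of any member was bivalent, that is, overlapped by H3K27me3 without H3K27ac. Genome-wide, 4.85% of DP regions were. With 5 DP regions at Klf2, 4 at Klf4 and 7 at Klf5, the absence cannot be told apart from that share.

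H3K27ac over the Klf5 window covered 39.1, 45.1 and 12.3 kb in Oct4+, 26.2, 3.37 and 3.91 kb in DP, and 5.73, 0 and 5.25 kb in Pdgfra+. The Oct4+ libraries lay above the Pdgfra+ libraries, as for 23.0% of genes, and overlapped DP, whose replicate 1 stood apart. The means were 32.2 ± 17.5, 11.2 ± 13 and 3.66 ± 3.18 kb (SD, n = 3; exact permutation p = 0.0571, adjusted p = 0.435).

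H3K4me1 covered 2.08, 35.2 and 10.5 kb in Oct4+, 6.53, 60.6 and 25.4 kb in DP, and 0, 1.15 and 22.7 kb in Pdgfra+. No population was free of overlap with another (exact permutation p = 0.45, adjusted p = 0.792). The high values came from the libraries with the longest lists of each population, Oct4+ replicate 2 (16057 peaks), DP replicate 2 (11874) and Pdgfra+ replicate 3 (10620), and the part of list length in this was not tested.

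Klf5 had no H3K27me3 peak and 19 H3K9me3 peaks, against 8 at Klf4 and 0 at Klf2. H3K9me3 covered 0.449, 3.91 and 2.49 kb in Oct4+, 6.14, 10.3 and 5.99 kb in DP, and 9.62, 3.19 and 4.39 kb in Pdgfra+ (exact permutation p = 0.125, adjusted p = 0.563). DP lay above Oct4+ without overlap, as for 10.3% of genes. The 2 regions listed in most libraries, 5 each, lay at the ends of the window. That from 104 to 97.7 kb before the start had a peak in 1 Oct4+, 2 DP and 2 Pdgfra+ libraries. That from 98.1 to 102 kb past it had one in 0, 3 and 2 and lay within an H3K4me1 region (96.6 to 102 kb) listed in 0, 2 and 1.

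**Figure D5:**
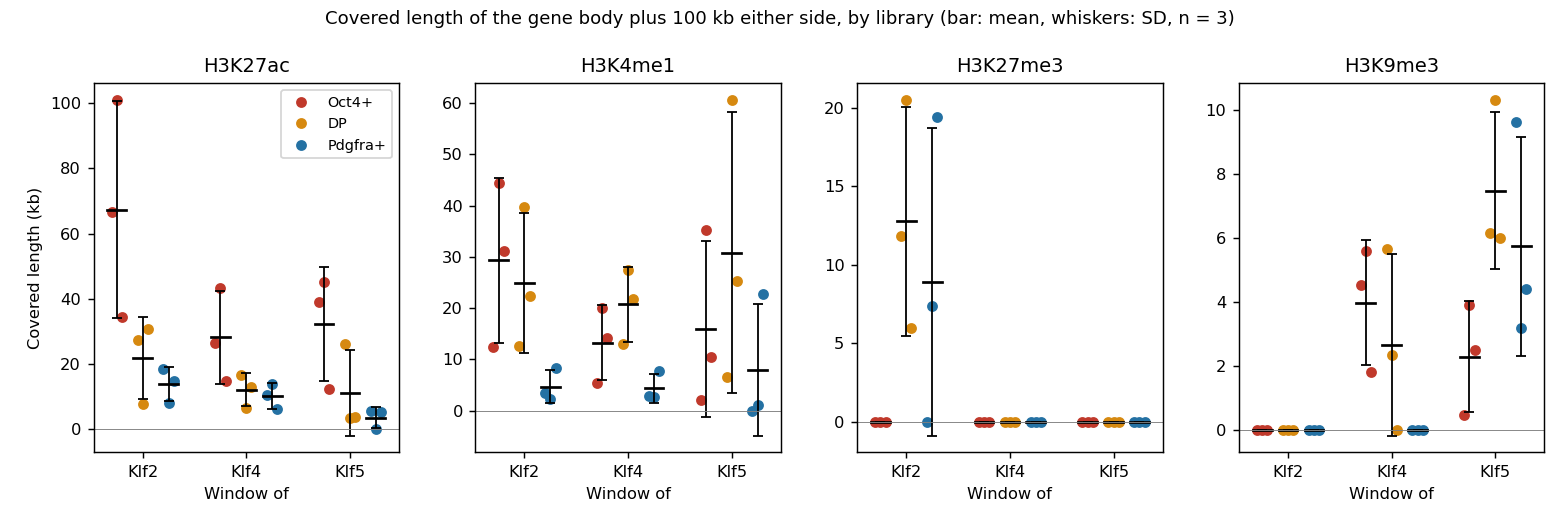
Covered length in kb of each member's window, in a panel per mark, with each library as a point, the mean as a bar and the SD as whiskers (n = 3). Oct4+ points lie above Pdgfra+ points for H3K27ac at all 3 genes, H3K27me3 is above 0 kb at Klf2 alone, and H3K9me3 is 0 kb at Klf2.

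Side by side, the 3 genes were alike in H3K27ac, where each window was covered further in every Oct4+ library than in any Pdgfra+ library, as for 23.0% of all genes, and differed in where it lay. Within 20 kb of the gene this held for Klf2 alone, and for 15.8% of all genes. With every H3K27ac list cut to 3079 peaks, the mean covered lengths in Oct4+, DP and Pdgfra+ were 35.5, 14 and 7.03 kb at Klf2 (exact permutation p = 0.0107, adjusted p = 0.258), 19.6, 6.43 and 7.23 kb at Klf4 (p = 0.0143, adjusted p = 0.258) and 10.4, 5.62 and 0 kb at Klf5 (p = 0.121, adjusted p = 0.48), and Oct4+ still lay above Pdgfra+ in every library, as for 8.79% of 14197 genes. With a common minimum of total signal, by contrast, Oct4+ and Pdgfra+ overlapped at all 3 genes, and 0.522% of 13986 genes had the separation. The means were then 25.1, 14.1 and 9.96 kb at Klf2 (exact permutation p = 0.429, adjusted p = 0.852), 13.5, 7.49 and 6.01 kb at Klf4 (p = 0.0857, adjusted p = 0.809) and 1.88, 4.49 and 3.66 kb at Klf5 (p = 0.893, adjusted p = 1.0). As a percent of the length covered by the whole list, the window of Klf2 took 0.0877% in Oct4+, 0.0605% in DP and 0.0569% in Pdgfra+, with overlap. The part of list length in these differences was not tested further.

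The 14 other KLF genes held 5 with the same separation in H3K27ac, which 23.0% of all genes had, and 1, Klf6, with its opposite (0.178% of all genes), and a median Oct4+ minus Pdgfra+ difference of 13.4 kb. Klf15 (42.2 kb) and Klf12 (41.8 kb) had the largest differences among the other KLF genes, Klf15 with overlapping libraries. Of 9 SP genes, whose products bind GC boxes too, 2 had the separation (median 8.43 kb). Of 17 tested of 18 other naive network genes 10 had it (median 19.5 kb), with Esrrb (41.0 kb) and Nanog (30.2 kb) the largest. The median over all genes was 10.5 kb, and no gene of these lists passed the adjusted threshold.

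For H3K4me1 the separation held for 1 of 14 other KLF genes, Klf15 (28.2 kb), for 0 of 9 SP genes and for 5 of 17 naive network genes, against 11.1% of all genes. Median differences were 3.50, 3.35 and 13.3 kb, and 2.11 kb over all genes, against 24.6 kb at Klf2, 8.84 kb at Klf4 and 7.98 kb at Klf5. Esrrb (37.6 kb) and Dppa3 (23.4 kb) were the largest of the naive network, while Klf13 (19.9 kb) came second among the other KLF genes, with overlapping libraries. For H3K27me3, Oct4+ lay above Pdgfra+ in 0 of 8 other KLF, 0 of 8 SP and 1 of 13 naive network genes tested (2.95% of all genes). Pdgfra+ lay above Oct4+ in 2 of 8, 0 of 8 and 0 of 13 (0.844%), and Klf2 had neither separation. For H3K9me3 the first held for 3 of 13, 1 of 8 and 2 of 17 (14.1%). The second held there for 0 of 13, 0 of 8 and 1 of 17 (6.23%).

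The genes most like each member in covered length over all 36 libraries, after each mark was centred on its own mean and divided by its SD, were Ube2r2, Tnfsf12 and Sox15 for Klf2 (Pearson r = 0.953, 0.952 and 0.95). For Klf4 they were Epb41l2, Pisd and Gm20671 (0.914, 0.890 and 0.890), and for Klf5 Gga3, Slc31a2 and Dzank1 (0.931, 0.921 and 0.916). All points share the libraries and their list lengths, so that these values are descriptions.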

How the data were processed

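The 36 deposited peak lists hold, per peak, a total signal and a maximum signal of fragment coverage. The authors made them by computing BedGraph coverage with bedtools (2.26.0 in the submitters' notes, which also name Bowtie2, SAMtools 1.12 and SEACR) and calling peaks per library against IgG with the stringent setting of SEACR. The notes name build mm10, the same assembly as GRCm38, and no listed peak ended beyond a GRCm38 chromosome. The scaling of coverage between libraries is not given in the sources used here, so maximum signals are given per library and only rank regions for naming, and populations were compared by the presence and length of peaks. The 3 IgG samples are not used here.

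For each of 21938 protein-coding genes (GENCODE vM21) the length covered by peaks in the gene body plus 100 kb either side was computed per library in Python 3.11.15 (numpy 2.4.6, pandas 2.3.3). Differences among the 3 populations were tested by exact permutation of the between-group sum of squares over 280 distinct splits of 9 libraries, two-sided and adjusted by Benjamini-Hochberg over all genes with a peak of the mark. The smallest p this allows is 0.00357, and 0.10 for 3 libraries against 3. With that floor, an adjusted p under 0.05 needs many genes at or near the smallest p together. A lack of calls therefore does not show a lack of difference. The test was checked on simulated data with the same spread in every library. Those data did not carry the differences in list length between the real libraries. Peaks of a mark sharing at least 1 base were merged into regions, and promoters of all annotated transcripts (1000 bp before to 100 bp after a start) set promoter regions apart. The members, gene lists, markers and motifs were chosen with earlier results of these data known. Named distal regions are, per gene, the 3 of highest mean maximum signal among H3K27ac and H3K4me1 regions outside promoters with a peak in 3 of 3 libraries of a population. List genes are named where called, or as the 2 with the largest Oct4+ minus Pdgfra+ difference per mark, and Klf6 was named after its values were seen. Alternatives were list length, signal minimum, window, unit, library omission and replicate block. The stretch 20 to 100 kb downstream was chosen after seeing the data. RefSeq sequences matched 2 of 3 members for promoters, and Klf5 was not among them.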

Additional observations from a re-analysis of the deposited data

How the results depend on the processing

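No setting called any gene for any mark at an adjusted p of 0.05, and the lowest adjusted p of a member was 0.0628, at Klf2 and Klf4 for H3K27ac without Oct4+ replicate 3, whose list (8574 peaks) is far shorter than those of replicates 1 and 2. Leaving it out raised the genes with an unadjusted p at or under 0.05 from 2532 to 12432. Of 159 alternative values of covered length, 151 kept the sign of the Oct4+ minus Pdgfra+ difference, 6 reversed it and 2, Klf4 and Klf5 H3K9me3 in the 20 kb window, were 0 kb with no peak left in any library. At Klf4 the 20 kb window gave -3.25 kb for H3K27ac and -2.92 kb for H3K4me1 because that window leaves out the far stretch, and as a percent of the length covered by each list the differences were -0.00669 and -0.0290. The cause of the latter was not tested. The common minimum of total signal gave -1.78 kb for Klf5 H3K27ac, and its cause was not tested either. Leaving out each library in turn gave 36.5 to 69.8 kb for Klf2, 10.4 to 24.6 kb for Klf4 and 22.1 to 38.5 kb for Klf5 in H3K27ac. For H3K4me1 these ranges were 17.1 to 33.1, 5.43 to 12.7 and -1.68 to 15.4 kb, the last reversed without Oct4+ replicate 2. They were -13.4 to -3.68 kb for Klf2 H3K27me3, and 3.18 to 5.06 kb for Klf4 and -4.72 to -1.51 kb for Klf5 in H3K9me3. Promoter counts moved under 10 of 48 settings and enhancer state counts under 24 of 36.

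The labels number replicates 1 to 3 in each population, and with the replicate number as a block (smallest p 0.0278) the exact permutation p was 0.0556 for Klf2, 0.139 for Klf4 and 0.0556 for Klf5 in H3K27ac, and 0.0278 for Klf4 H3K4me1. No gene was called with the block, and those at an unadjusted p at or under 0.05 went from 2532 to 208 in H3K27ac. Only genes at the smallest p of the block can count there, since its next value is 0.0556. The adjusted threshold could be passed only with most genes at that smallest p. The coarse steps of the block therefore limit both counts, and neither was read as a result about the populations. Deviations of same-numbered libraries correlated above 0.1 in 12 of 36 pairs (-0.756 to 0.771), and a library matched its own number best in 20 of 72 checks, so that the numbers are not shown to pair the libraries. In H3K27me3 all 3 pairs of Oct4+ and Pdgfra+ were above 0.1 (0.468 to 0.689) and no pair of either with DP was, and the block gave an exact permutation p of 0.278 for Klf2 H3K27me3. Depth is unknown, and a peak absent from a short list is not shown to be absent from the cells.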
